A study of Mus musculus with 60 samples.

Results

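The 8 genes described here mark the trophectoderm, the outer epithelium of the blastocyst, and were followed through every RNA-seq and ChIP-seq group of the series: the transcription factor genes Cdx2, Eomes, Gata3, Tfap2c, Ascl2 and Hand1 and the keratin genes Krt8 and Krt18. They were taken by symbol, by a rule that uses no measured value, although earlier results of these data were known when they were listed, and are 8 of the 24206 gene symbols used from a first expression table and of the 24314 in a time-course table. The series holds 60 samples of mouse embryonic stem (ES) cells, with 2 libraries in each of 30 groups. It compares wild-type (WT) cells with cells in which Lnc956, a long noncoding RNA, was knocked down or knocked out, under etoposide. Etoposide breaks DNA by trapping topoisomerase II on it. In the first RNA-seq set WT and Lnc956 knockdown cells were untreated or given 10 uM etoposide, and the labels give no duration. The time course as used here held WT cells at 6 h and 9 h of etoposide. It also held 3 genotypes at 0 h (untreated), 3 h, 6 h and 9 h: Lnc956 knockout, P53 knockdown, and both changes together (combined loss). Its labelled dose was 1 uM except in 4 libraries labelled 10 uM: knockout 3 h replicate 2, knockout 6 h replicate 1, P53 knockdown 6 h replicate 1 and combined loss 9 h replicate 2. P53 ChIP-seq covered WT and Lnc956 knockdown cells, untreated or at 10 uM. KLF4 ChIP-seq covered WT cells, Lnc956 knockout cells, knockout cells that overexpressed full-length Lnc956 (full-length rescue) and knockout cells that overexpressed Lnc956 without bases 862 to 1253 (deletion rescue), each untreated or at 10 uM for 3 h. The labels do not name the cell line, the knockdown vectors or the number of knockout clones, and do not say whether replicates were separate cultures, so the p-values rest on a spread between libraries that may be purely technical. Combined-loss columns were matched to their samples as the one name left after the other genotypes.

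In the embryo the trophectoderm separates from the pluripotent inner cells by switching on a small network of transcription factors and by turning into a polarised epithelium. CDX2, a caudal-type homeobox factor, EOMES, a T-box factor, GATA3, a zinc-finger factor, and TFAP2C, an AP-2 family factor, act early in that network, and EOMES and TFAP2C are also used outside it, in the primitive streak and in germ cells respectively. ASCL2 and HAND1 are basic helix-loop-helix factors of the later placenta, ASCL2 in the ectoplacental cone and spongiotrophoblast and HAND1 in trophoblast giant cells. Keratin 8 (type II) and keratin 18 (type I) pair with each other in the intermediate filaments of simple epithelia and are the first keratins made by the embryo. P53 is the transcription factor that DNA breaks activate, and KLF4 is a zinc-finger factor of naive ES cells.

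Values are FPKM (fragments per kilobase of transcript scaled to library size), so levels can be compared between genes, while depth is unknown without counts. The number of genes at 1 FPKM or more was 11245 to 12858 per time-course library. Trp53, which encodes P53, stood at 78.2 and 77.7 FPKM in the P53 knockdown libraries at 6 h and 58.0 and 66.2 in the combined-loss libraries, against 234 and 207 in WT at 6 h. Neither table has a row named for Lnc956, so its loss was not checked. The ES cell marker Pou5f1 was between 616 and 1421 FPKM in every library of the time course and between 1203 and 1487 in the first set, while Tpbpa, a spongiotrophoblast marker, was listed at 0 in all 36 RNA libraries. The list of 5 ES cell markers (Pou5f1, Nanog, Sox2, Esrrb and Zfp42) summed to 1763 to 1974 FPKM in the first set and 953 to 2038 in the time course. A list of 13 fibroblast and feeder cell genes, collagens among them, differed widely between groups. Its summed level was 664 and 651 FPKM in untreated WT libraries and 633 and 635 in untreated knockdown libraries of the first set, but 189 and 180.0 and 169 and 169.6 with etoposide. In the time course it was 17.2 and 15.2 in WT at 6 h and 15.6 and 14.2 at 9 h, with Postn at 0 in all 4 WT libraries, against 296 to 1022 in the 24 libraries of the other genotypes. The 2 P53 knockdown libraries at 0 h stood apart from each other (515 and 329), as did those at 3 h (558 and 296). Of the time-course values, 5.02% of those above 0 were written with 3 or fewer significant digits, from 0.321% to 12.3% of a library, against 0.0930% in the first table. The share was 0.321% to 0.841% in WT, 0.395% to 3.64% in knockout and 7.19% to 9.56% in combined-loss libraries. In P53 knockdown libraries it was 0.773% to 2.50% at 0 h and 3 h, and 11.6% to 12.3% at 6 h and 9 h. It thus differed between groups that are compared below. What was done to the values with few digits is not stated in the labels. They include 7 values of the members: Eomes in P53 knockdown at 6 h (5.01, replicate 2) and in both combined-loss libraries at 9 h (3.02 and 2.99), Gata3 in both P53 knockdown libraries at 3 h (2.92 and 1.27), Krt18 in P53 knockdown at 9 h (replicate 1) and Hand1 in P53 knockdown at 9 h (7.84, replicate 1).

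The sequences upstream of 4 members are shown because KLF4 peaks of 3 or more libraries lay over at least part of them. Cdx2, with a peak over this stretch in 1 library, is left out. They are the 250 bases before the annotated start site (RefSeq, GRCm38.p6), 5′ to 3′ on the strand of the gene, and capitals mark the letters GGGNGTG or, for the other strand, CACNCCC, a short form of the sequence KLF4 is known to bind. Krt18 (chr15:102027966-102028215, plus strand) held 3 matches, Ascl2 (chr7:142969265-142969514, minus strand) held 2, Gata3 (chr2:9878601-9878850, minus strand) held 1 and Krt8 (chr15:102004343-102004592, minus strand) held none.
Krt8: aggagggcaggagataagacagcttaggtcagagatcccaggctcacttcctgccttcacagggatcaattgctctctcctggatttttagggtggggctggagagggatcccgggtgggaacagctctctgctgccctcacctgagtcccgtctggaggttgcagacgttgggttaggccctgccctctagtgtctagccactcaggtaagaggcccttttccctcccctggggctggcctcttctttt
Krt18: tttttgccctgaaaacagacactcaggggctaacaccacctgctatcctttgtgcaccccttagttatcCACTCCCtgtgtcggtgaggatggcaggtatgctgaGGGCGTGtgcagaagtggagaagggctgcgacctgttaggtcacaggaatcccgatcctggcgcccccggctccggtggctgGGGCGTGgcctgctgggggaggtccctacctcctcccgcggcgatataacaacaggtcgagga
Ascl2: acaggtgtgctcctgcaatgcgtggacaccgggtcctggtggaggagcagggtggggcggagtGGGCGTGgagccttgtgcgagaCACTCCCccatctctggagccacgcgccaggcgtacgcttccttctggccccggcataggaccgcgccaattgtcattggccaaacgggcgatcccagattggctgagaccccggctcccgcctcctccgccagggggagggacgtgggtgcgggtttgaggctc
Gata3: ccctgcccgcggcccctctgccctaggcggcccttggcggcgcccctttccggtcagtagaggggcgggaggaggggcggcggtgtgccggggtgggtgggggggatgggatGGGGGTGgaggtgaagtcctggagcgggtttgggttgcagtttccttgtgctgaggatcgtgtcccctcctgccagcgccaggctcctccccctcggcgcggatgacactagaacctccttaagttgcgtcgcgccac
Promoters of 6 of the 8 members were in the table used, without Tfap2c and Hand1. The letters were present in 4 of these 6 (Cdx2 with 1 match, Eomes with none) and in 26.1% of the 32851 promoters in the table, which hold 53.2% G or C on average. The upstream sequences of Gata3 and Ascl2 are richer in these bases, at 70.0% and 67.6%, and a match says nothing of whether the factor was there.

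In the first set etoposide went with lower keratin, Tfap2c, Eomes and Hand1 transcripts in WT cells, and with smaller falls of the keratins and Hand1 in Lnc956 knockdown cells, which had started lower. Of the 8 members 6 could be tested, those that reached 1 FPKM in at least 2 libraries. Cdx2 (at most 0.0775 FPKM) and Gata3 (at most 0.597 FPKM) did not. In WT cells 5 of 6 were lower with etoposide and none was higher, where 76.9% of all 12733 genes tested were called at an adjusted p under 0.05. In knockdown cells 5 were lower and 1, Ascl2, was higher, with 68.6% of all genes called. Untreated knockdown cells had 3 of 6 members lower than WT, with 23.8% of all genes called, and under etoposide 1 of 6, Eomes, differed, with 45.6% called. The response to etoposide itself differed between the genotypes for 4 of 6 members, with 33.1% called. The median log2 difference of the 6 members with etoposide was -1.21 in WT and -0.63 in knockdown cells, against 0.0080 and -0.038 over all genes tested. These are libraries of whole cultures, in which fewer cells of a type and less RNA per cell cannot be told apart. All 13 fibroblast and feeder genes were also lower with etoposide in both genotypes, at the summed levels given above, and their part in the members' falls was not tested. Of the 5 ES cell markers 4 were lower and 1 higher with etoposide in WT cells and 4 lower in knockdown cells, under etoposide 3 were higher in knockdown than in WT cells and the responses differed for 4, and their part was not tested either.

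**Figure D1:**
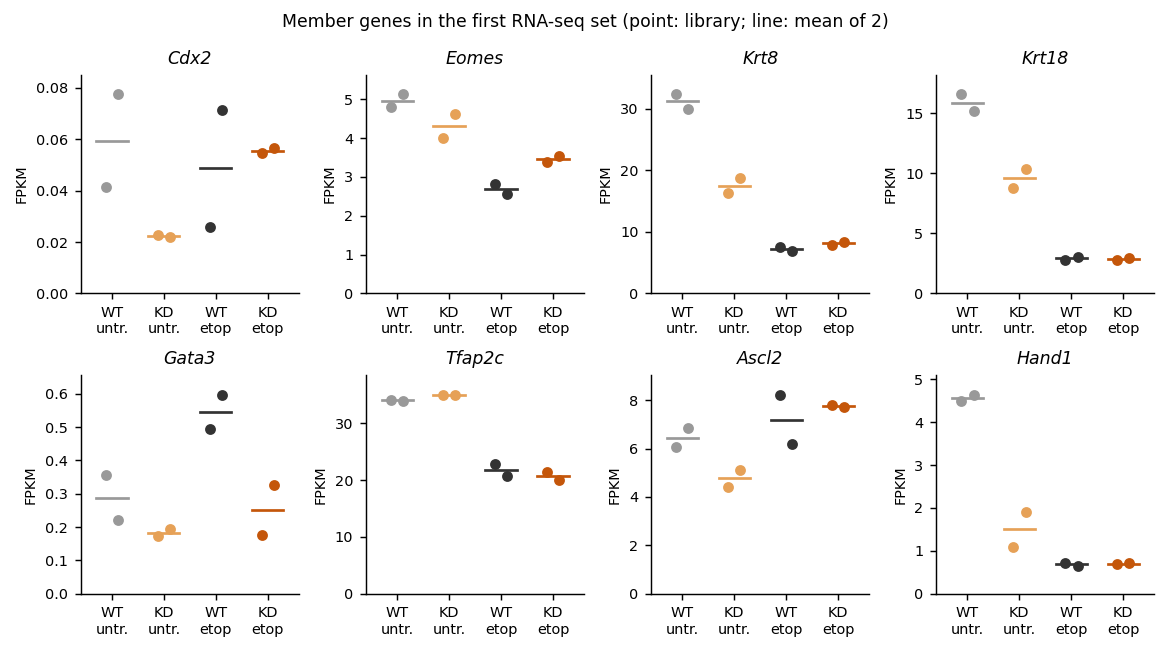
FPKM of the 8 members in the 8 libraries of the first set (KD, Lnc956 knockdown; untr., untreated; etop, 10 uM etoposide), each axis starting at 0. Points are libraries and lines are means of 2; Krt8, Krt18 and Hand1 step down from untreated WT to untreated knockdown to both treated groups, while Tfap2c is split by treatment alone.

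Both keratins were highest in untreated WT, lower in untreated knockdown and lowest in treated cells. Keratin genes resemble one another and have pseudogene copies, and the labels do not say how reads were assigned among them, so these levels are uncertain to that extent. Krt8 measured 32.4 and 30.1 FPKM in untreated WT libraries, 16.3 and 18.7 in untreated knockdown libraries, 7.49 and 6.96 in treated WT and 7.93 and 8.40 in treated knockdown libraries. The 4 treated libraries lie below all 4 untreated ones, and the untreated genotypes do not overlap. On the scale of log2(FPKM + 1) the WT change was -1.97 ± 0.077 (SE, limma adjusted p = 7.0e-08), the knockdown change -1.01 ± 0.077 (SE, limma adjusted p = 5.3e-06) and the untreated genotype difference -0.80 ± 0.077 (SE, limma adjusted p = 0.00102). Krt18 measured 16.6 and 15.2 FPKM in untreated WT, 8.78 and 10.4 in untreated knockdown, 2.81 and 3.04 in treated WT and 2.81 and 2.93 in treated knockdown libraries. Its means were 15.9 ± 0.992 (SD, n = 2) in untreated and 2.92 ± 0.164 in treated WT cells, 5.43-fold apart. The log2 change was -2.10 ± 0.088 (SE, limma adjusted p = 1.0e-07) in WT and -1.45 ± 0.088 (SE, limma adjusted p = 1.5e-06) in knockdown cells, and untreated knockdown cells were lower by -0.68 ± 0.088 (SE, limma adjusted p = 0.00191). Under etoposide the genotypes differed by 0.16 ± 0.077 (SE, limma adjusted p = 0.127) for Krt8 and -0.019 ± 0.088 (SE, limma adjusted p = 0.881) for Krt18, which did not pass. The smaller fall in knockdown cells was itself a difference of 0.96 ± 0.11 (SE, limma adjusted p = 3.4e-04) for Krt8 and 0.66 ± 0.13 (SE, limma adjusted p = 0.00444) for Krt18. The ratio of Krt8 to Krt18 was between 1.80 and 2.86 in the 8 libraries.

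Of the early lineage factors, Tfap2c was the most abundant and its level followed treatment only. It measured 34.1 and 34.0 FPKM in untreated WT and 35.0 and 35.0 in untreated knockdown libraries, then 22.8 and 20.8 and 21.5 and 20.0 with etoposide. The log2 change was -0.62 ± 0.057 (SE, limma adjusted p = 9.6e-06) in WT and -0.73 ± 0.057 (SE, limma adjusted p = 6.4e-06) in knockdown cells, and the test of a difference between these changes did not pass (-0.11 ± 0.081, SE, limma adjusted p = 0.347). Eomes measured 4.80 and 5.12 FPKM in untreated WT, 3.99 and 4.61 in untreated knockdown, 2.83 and 2.56 in treated WT and 3.40 and 3.53 in treated knockdown libraries. Its fall in WT cells was -0.69 ± 0.086 (SE, limma adjusted p = 7.5e-05). Its 3 other calls were close to the threshold: -0.25 ± 0.086 (SE, limma adjusted p = 0.0299) for treatment in knockdown cells, 0.27 ± 0.086 (SE, limma adjusted p = 0.0295) for knockdown against WT under etoposide, and 0.44 ± 0.12 (SE, limma adjusted p = 0.0232) for the difference of the responses. The first was lost without treated knockdown replicate 1 or 2 or untreated knockdown replicate 2 (limma adjusted p = 0.108, 0.0638 and 0.192) and under quantile scaling (limma adjusted p = 0.241). The second was lost without treated WT replicate 2 or treated knockdown replicate 1 or 2 (limma adjusted p = 0.143, 0.0683 and 0.112). The third was lost without treated WT replicate 2, untreated WT replicate 2, treated knockdown replicate 2 or untreated knockdown replicate 1 (limma adjusted p = 0.0699, 0.079, 0.0625 and 0.0776). Gata3, below the filter, was listed at 0.355 and 0.222 FPKM in untreated WT, 0.172 and 0.194 in untreated knockdown, 0.495 and 0.597 in treated WT and 0.175 and 0.325 in treated knockdown libraries. It is the single member in the authors' deposited table of 1007 genes, which is named for knockdown against WT with etoposide. Eomes, the member called here in that comparison, is not in it.

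With etoposide in knockdown cells the placental factors differed in direction, Hand1 lower and Ascl2 higher. Hand1 measured 4.49 and 4.64 FPKM in untreated WT, 1.09 and 1.91 in untreated knockdown, 0.713 and 0.657 in treated WT and 0.689 and 0.715 in treated knockdown libraries. Untreated WT cells alone stood above 4 FPKM, and both treated groups were below 1. The log2 difference was -1.72 ± 0.14 (SE, limma adjusted p = 4.8e-06) for treatment in WT, -0.54 ± 0.14 (SE, limma adjusted p = 0.00824) for treatment in knockdown cells and -1.17 ± 0.14 (SE, limma adjusted p = 0.00158) for untreated knockdown against WT, and the responses differed by 1.19 ± 0.20 (SE, limma adjusted p = 0.0025). Without untreated knockdown replicate 2 the change in knockdown cells was -0.30 (limma adjusted p = 0.0444). Ascl2 measured 6.06 and 6.85 FPKM in untreated WT, 4.42 and 5.13 in untreated knockdown, 8.23 and 6.17 in treated WT and 7.79 and 7.71 in treated knockdown libraries. Untreated knockdown libraries lay below WT by a log2 difference of -0.37 ± 0.12 (SE, limma adjusted p = 0.054), which did not pass. The rise of Ascl2 passed in knockdown cells (0.60 ± 0.12, SE, limma adjusted p = 0.00178), and in WT cells the change was 0.13 ± 0.12 (SE, limma adjusted p = 0.347), where the treated libraries spread across the untreated ones. Without treated WT replicate 2 the WT change was 0.31 (limma adjusted p = 0.0305), and without replicate 1 it was -0.053 (limma adjusted p = 0.679). The difference of the Ascl2 responses was 0.47 ± 0.17 (SE, limma adjusted p = 0.06), and passed without treated WT replicate 1 (0.65, limma adjusted p = 0.0131) and under quantile scaling (0.53, limma adjusted p = 0.0406).

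Of 22 other trophoblast and simple-epithelium genes 15 could be tested in the first set. With etoposide 3 were higher and 8 lower in WT cells, where 76.9% of all genes tested were called. In knockdown cells 2 were higher and 9 lower, with 68.6% called. The Hippo co-activator gene Wwtr1 fell from 20.2 to 7.29 FPKM in WT cells (-1.36 ± 0.058, SE, limma adjusted p = 1.2e-07) and the desmosome gene Dsp from 11.1 to 3.83 (-1.33 ± 0.076, SE, limma adjusted p = 5.5e-07), while the tight junction gene Cldn4 rose from 40.3 to 62.7 (0.63 ± 0.048, SE, limma adjusted p = 3.2e-06). Tead4, which encodes the partner of YAP1 upstream of Cdx2 in the embryo, rose in knockdown cells from 10.0 to 16.4 FPKM (0.67 ± 0.070, SE, limma adjusted p = 3.8e-05). Untreated knockdown cells had 1 of the 15 higher and 6 lower than WT, with 23.8% of all genes called. Among the 6 was Krt19, another simple-epithelial keratin, at 37.1 and 33.2 FPKM in WT and 4.26 and 11.3 in knockdown libraries (-2.17 ± 0.30, SE, limma adjusted p = 0.00244). Under etoposide 5 were higher and 7 lower in knockdown cells than in WT, with 45.6% of all genes called. Tead4 was higher (0.88 ± 0.070, SE, limma adjusted p = 2.0e-05) and the claudin gene Cldn6 lower (-0.98 ± 0.074, SE, limma adjusted p = 1.5e-05).

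In the time course the members' largest differences from WT were those of the keratins. WT cells under etoposide had the lowest levels, Lnc956 knockout cells were higher by 6 h and 9 h, P53 knockdown cells higher again and combined-loss cells high from the start. Ascl2 was the reverse at 6 h, highest in WT, and it stayed near the bottom in combined-loss cells throughout. Of the 8 members 7 could be tested, all but Cdx2. Comparisons with WT at one time share the same 2 WT libraries, and those with 0 h share the 0 h libraries of that genotype. In knockout cells 5 of 7 members were above and 1 below WT at 6 h, with 48.3% of all 14223 genes called, and in P53 knockdown cells 6 were above and 1 below, with 53.2% called. At 9 h 3 were higher in knockout cells, with 44.1% called, and 6 in P53 knockdown cells, with 54.5% called. Gata3 is counted among the higher members each time, although its means were below 1 FPKM in both groups compared. In WT cells 1 member rose and 1 fell from 6 h to 9 h, with 12.1% of all genes called. The fibroblast and feeder genes also separate WT from the rest, with 12 of 13 higher in knockout and all 13 higher in P53 knockdown cells than in WT at both times, and their part in the members' differences from WT was not tested. Of the 5 ES cell markers 1 was higher and 2 lower than in WT at 6 h and 2 higher and 3 lower at 9 h in knockout cells, and 2 higher and 2 lower at both times in P53 knockdown cells.

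**Figure D2:**
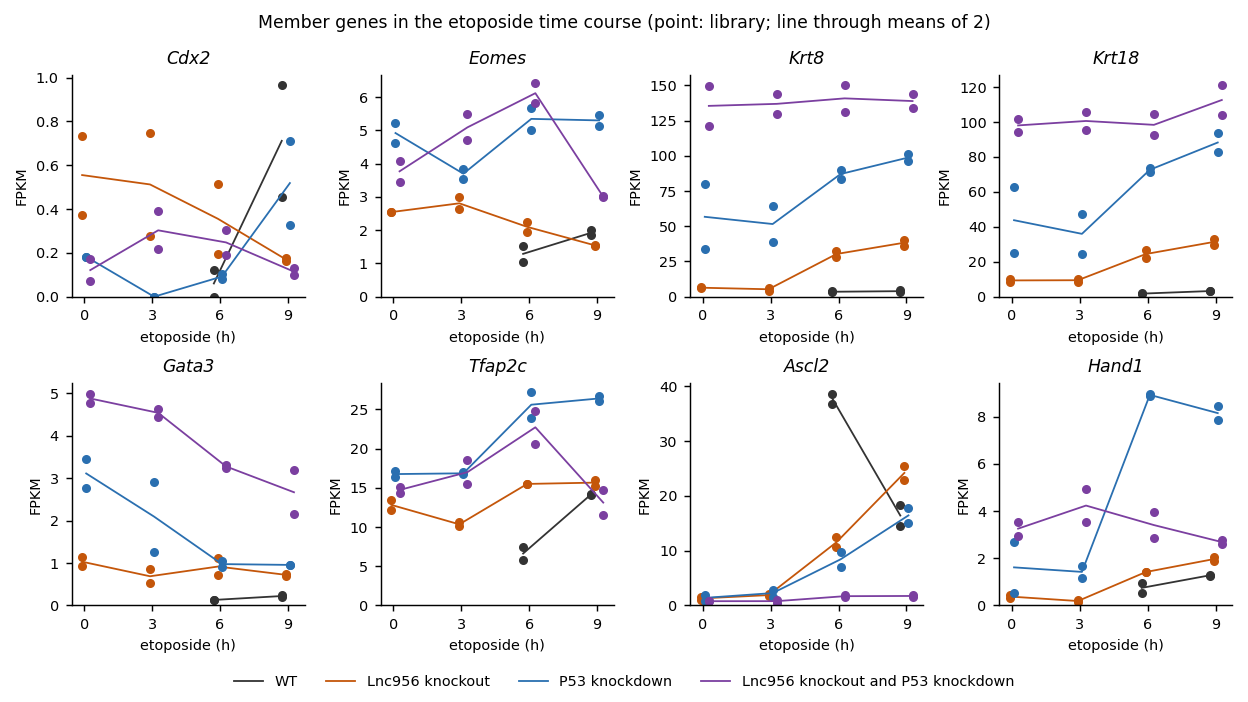
FPKM of the 8 members against hours of etoposide in the 28 libraries of the time course, each axis starting at 0. Points are libraries, slightly shifted sideways by genotype, and lines join means of 2; WT was used at 6 h and 9 h, where its Krt8 and Krt18 points lie lowest, and the 2 P53 knockdown libraries at 0 h and at 3 h lie apart for both keratins.

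Within genotypes, no member was called between 0 h and 3 h. In knockout cells 0 of 7 passed, with 0.45% of all genes called, and in P53 knockdown cells 0 of 7, with 5.18% called. In combined-loss cells 0 of 7 members and 0% of all genes passed by limma, with 454 of 14223 genes at an unadjusted p under 0.05. From 0 h to 9 h 4 members rose and 1, Eomes, fell in knockout cells, with 63.6% of all genes called, 5 rose and 1, Gata3, fell in P53 knockdown cells, with 60.2% called, and 1, Gata3, fell in combined-loss cells, with 5.62% called. The median log2 difference over the 7 members was 1.11, 0.92 and -0.16 in that order, and over all genes tested 0.27, 0.20 and 0.058. The 9 h response differed between P53 knockdown and knockout cells for 3 of 7 members, with 46.4% of all genes called. Between combined-loss and knockout cells it differed for 5, with 47.4% called, and between combined-loss and P53 knockdown cells for 3, with 34.2% called. Combined-loss cells had 4 members higher than P53 knockdown cells at 0 h, with 44.9% called, and 1 higher and 4 lower at 9 h, with 47.9% called. Against knockout cells they had 5 higher at 0 h, with 55.4% called, and 4 higher and 1 lower at 9 h, with 53% called. The 13 fibroblast and feeder genes also differed in some of these comparisons. From 0 h to 9 h 9 were higher and none lower in P53 knockdown cells, 2 higher and 5 lower in knockout cells and none called in combined-loss cells, and the response was higher in P53 knockdown than in knockout cells for 11. Combined-loss cells had 11 lower and none higher than P53 knockdown cells at 9 h (median log2 difference -0.96), and 3 higher and 2 lower at 0 h. Against knockout cells they had 2 higher and 6 lower at 0 h and 3 higher and 4 lower at 9 h. The response of combined loss was lower than that of P53 knockdown for 8 and higher than that of knockout for 4. All 5 ES cell markers were lower at 9 h than at 0 h in knockout and in P53 knockdown cells, and 3 were lower in combined-loss cells. Combined-loss cells had all 5 higher than P53 knockdown and 4 higher than knockout cells at 9 h. The part of either list in the members' differences was not tested. The gap to WT changed between 6 h and 9 h for 3 members in knockout cells, with 20.1% called, and for 2 in P53 knockdown cells, with 8.41% called.

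Krt8 measured 3.69 and 3.32 FPKM in WT libraries at 6 h and 4.43 and 3.42 at 9 h. In knockout libraries it measured 6.92 and 5.85 at 0 h, 6.40 and 4.14 at 3 h, 32.1 and 28.5 at 6 h and 36.3 and 40.4 at 9 h. The knockout level thus lay at 4.14 to 6.92 FPKM up to 3 h and at 28.5 to 40.4 afterwards, with no overlap. In P53 knockdown libraries it measured 33.7 and 79.8 at 0 h, 38.8 and 64.3 at 3 h, 83.9 and 90.3 at 6 h and 101 and 96.3 at 9 h, and in combined-loss libraries 149.9 and 121, 129.6 and 144, 131 and 150.4 and 134 and 144. All 8 combined-loss libraries lie above every library of the other genotypes. Against WT the log2 difference at 6 h was 2.80 ± 0.27 (SE, limma adjusted p = 5.8e-08) in knockout and 4.29 ± 0.27 (SE, limma adjusted p = 9.9e-11) in P53 knockdown cells, and at 9 h 3.00 ± 0.27 (SE, limma adjusted p = 3.1e-08) and 4.35 ± 0.27 (SE, limma adjusted p = 8.3e-11). The rise from 0 h to 9 h was 2.42 ± 0.27 (SE, limma adjusted p = 3.1e-07) in knockout cells, or 6.00-fold between means in FPKM, and 0.92 ± 0.27 (SE, limma adjusted p = 0.00682) in P53 knockdown cells, and it differed between them by -1.50 ± 0.38 (SE, limma adjusted p = 0.00362). The P53 knockdown rise rested on 0 h replicate 1, without which it was 0.31 (limma adjusted p = 0.274), and without 0 h replicate 2 it was 1.52 (limma adjusted p = 3.1e-05) and its difference from the knockout rise -0.89 (limma adjusted p = 0.0222). In combined-loss cells the 9 h change was 0.043 ± 0.27 (SE, limma adjusted p = 0.965). The change from 3 h to 6 h was not tested. In the table the knockout columns for 0 h and 3 h are named in another way than those for 6 h and 9 h. The labels do not say whether the 2 pairs of times were handled apart. That limit applies to the 0 h to 9 h change of every member in knockout cells.

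Krt18 followed Krt8. It measured 1.91 and 1.58 FPKM in WT at 6 h and 3.21 and 3.23 at 9 h, and in knockout libraries 10.4 and 8.27 at 0 h, 10.4 and 8.48 at 3 h, 26.9 and 21.9 at 6 h and 29.8 and 32.9 at 9 h. The P53 knockdown libraries gave 24.9 and 62.7 at 0 h, 24.5 and 47.5 at 3 h, 71.5 and 73.9 at 6 h and 94.0 and 82.6 at 9 h, and the combined-loss libraries 102 and 94.6, 95.3 and 106, 92.5 and 104 and 104 and 121. At 6 h knockout cells exceeded WT by 3.21 ± 0.29 (SE, limma adjusted p = 2.0e-08) and P53 knockdown cells by 4.75 ± 0.29 (SE, limma adjusted p = 5.0e-11). The latter was the largest difference of a member among the 2-group comparisons tested, and combined loss was not tested against WT. At 9 h these differences were 2.94 ± 0.29 (SE, limma adjusted p = 9.4e-08) and 4.40 ± 0.29 (SE, limma adjusted p = 1.6e-10). From 0 h to 9 h Krt18 rose by 1.65 ± 0.29 (SE, limma adjusted p = 5.4e-05) in knockout and 1.13 ± 0.29 (SE, limma adjusted p = 0.00216) in P53 knockdown cells, the latter 0.48 (limma adjusted p = 0.0987) without 0 h replicate 1 and 1.78 (limma adjusted p = 9.8e-06) without 0 h replicate 2. Combined-loss cells were above knockout cells by 3.27 ± 0.29 (SE, limma adjusted p = 1.9e-08) at 0 h and 1.81 ± 0.29 (SE, limma adjusted p = 2.9e-05) at 9 h. Against P53 knockdown cells they were higher at 0 h by 1.36 ± 0.27 (SE, limma adjusted p = 4.8e-04) for Krt8 and 1.29 ± 0.29 (SE, limma adjusted p = 0.00125) for Krt18, and at 9 h the differences of 0.49 ± 0.27 (SE, limma adjusted p = 0.148) and 0.35 ± 0.29 (SE, limma adjusted p = 0.339) did not pass. The 0 h differences were 0.75 (limma adjusted p = 0.017) for Krt8 and 0.64 (limma adjusted p = 0.0478) for Krt18 without P53 knockdown replicate 1, and 1.97 (limma adjusted p = 4.6e-06) and 1.93 (limma adjusted p = 8.8e-06) without replicate 2. In the P53 knockdown pairs at 0 h and 3 h the library with the lower keratin levels, replicate 1 each time, had the higher fibroblast and feeder level. Without 0 h replicate 2 the 9 h responses of combined-loss and P53 knockdown cells differed for Krt8 (-1.48, limma adjusted p = 0.0013) and Krt18 (-1.59, limma adjusted p = 0.00112), where with all libraries neither passed (-0.87 ± 0.38, SE, limma adjusted p = 0.084, and -0.94 ± 0.41, SE, limma adjusted p = 0.0791). The ratio of Krt8 to Krt18 was lowest in knockout cells at 0 h and 3 h, at 0.488 to 0.707, and at least 1.06 in every other library. Over the 14 group means the 2 keratins had the highest Pearson correlation with each other among all 14222 genes set beside them (r = 0.98), as a description over groups that share their processing.

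**Figure D3:**
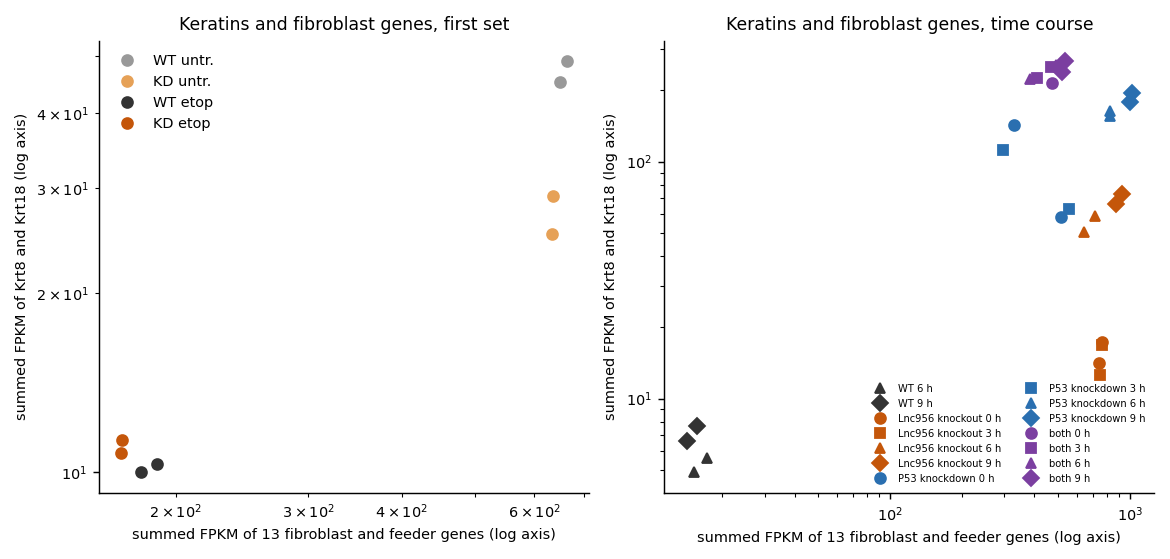
Summed FPKM of Krt8 and Krt18 against the summed FPKM of the 13 fibroblast and feeder genes, 1 point per library, both axes logarithmic, for the first set (left) and the time course (right). In the first set both sums are low with etoposide; in the time course the 4 WT libraries lie lowest on both axes, while among the other genotypes the combined-loss libraries have the most keratin at 384 to 537 FPKM of fibroblast genes and the knockout libraries at 0 h and 3 h have little keratin at 742 to 767.

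Tfap2c and Eomes were higher in P53 knockdown cells than in WT at both times. Tfap2c measured 7.43 and 5.81 FPKM in WT at 6 h and 14.2 and 14.1 at 9 h, a rise of 1.00 ± 0.12 (SE, limma adjusted p = 4.5e-05). In knockout libraries it measured 12.2 and 13.5 at 0 h, 10.6 and 10.1 at 3 h, 15.5 and 15.5 at 6 h and 16.1 and 15.3 at 9 h. In P53 knockdown libraries it measured 17.1 and 16.4, 16.7 and 17.0, 27.3 and 23.9 and 26.1 and 26.7, and in combined-loss libraries 14.3 and 15.1, 18.6 and 15.4, 20.6 and 24.8 and 11.5 and 14.7. The knockout libraries stood above WT at 6 h (1.12 ± 0.12, SE, limma adjusted p = 3.7e-07) and at 9 h the difference was 0.14 ± 0.12 (SE, limma adjusted p = 0.395), and the change of this gap was itself -0.99 ± 0.18 (SE, limma adjusted p = 5.8e-04). P53 knockdown cells exceeded WT by 1.81 ± 0.12 (SE, limma adjusted p = 3.5e-10) at 6 h and 0.85 ± 0.12 (SE, limma adjusted p = 9.4e-06) at 9 h, and rose by 0.63 ± 0.12 (SE, limma adjusted p = 2.7e-04) from 0 h. Combined-loss cells did not keep that level, with -0.97 ± 0.12 (SE, limma adjusted p = 5.3e-06) against P53 knockdown cells at 9 h.

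Eomes measured 1.52 and 1.05 FPKM in WT at 6 h and 1.84 and 2.00 at 9 h. The knockout libraries gave 2.54 and 2.55 at 0 h, 2.99 and 2.63 at 3 h, 2.26 and 1.94 at 6 h and 1.54 and 1.54 at 9 h, a fall of -0.48 ± 0.13 (SE, limma adjusted p = 0.00301). P53 knockdown libraries stood at 5.21 and 4.63 at 0 h, 3.85 and 3.54 at 3 h, 5.68 and 5.01 at 6 h and 5.46 and 5.15 at 9 h, and combined-loss libraries at 4.09 and 3.45, 4.70 and 5.48, 5.83 and 6.41 and 3.02 and 2.99. P53 knockdown exceeded WT by 1.48 ± 0.13 (SE, limma adjusted p = 9.4e-09) at 6 h and 1.11 ± 0.13 (SE, limma adjusted p = 5.0e-07) at 9 h. Knockout exceeded WT at 6 h by 0.44 ± 0.13 (SE, limma adjusted p = 0.00746), a call lost without WT replicate 2 (limma adjusted p = 0.133) or without knockout replicate 1 (limma adjusted p = 0.072), which is labelled 10 uM. At 9 h the difference was -0.20 ± 0.13 (SE, limma adjusted p = 0.219), and -0.43 (limma adjusted p = 0.00888) under quantile scaling. Combined-loss cells lay below P53 knockdown cells at 9 h (-0.65 ± 0.13, SE, limma adjusted p = 3.9e-04) and above knockout cells at 0 h (0.43 ± 0.13, SE, limma adjusted p = 0.00838) and 9 h (0.66 ± 0.13, SE, limma adjusted p = 2.6e-04). Both values of combined loss at 9 h are among those with few digits, and the 2 comparisons at 9 h have no other library to rest on. The 0 h call was lost without combined-loss replicate 1 (limma adjusted p = 0.0937) and under quantile scaling (limma adjusted p = 0.346).

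At each time Gata3 was highest in combined-loss cells, and Cdx2 was near the bottom of the scale everywhere. Gata3 measured 0.134 and 0.125 FPKM in WT at 6 h and 0.250 and 0.194 at 9 h. In knockout libraries it measured 1.13 and 0.931 at 0 h, 0.521 and 0.855 at 3 h, 1.11 and 0.723 at 6 h and 0.693 and 0.750 at 9 h. The P53 knockdown libraries fell from 2.77 and 3.45 at 0 h, through 2.92 and 1.27 at 3 h and 1.05 and 0.897 at 6 h, to 0.963 and 0.949 at 9 h (-1.07 ± 0.19, SE, limma adjusted p = 1.1e-04 from 0 h to 9 h). In combined-loss libraries it measured 4.77 and 4.997, 4.45 and 4.64, 3.32 and 3.23 and 2.15 and 3.19, above knockout cells by 1.54 ± 0.19 (SE, limma adjusted p = 1.9e-06) at 0 h and 1.08 ± 0.19 (SE, limma adjusted p = 1.1e-04) at 9 h. Combined-loss cells exceeded P53 knockdown cells by 0.89 ± 0.19 (SE, limma adjusted p = 9.3e-04) at 9 h. At 0 h that difference was 0.52 ± 0.19 (SE, limma adjusted p = 0.0349), a call lost without combined-loss replicate 1 or 2 or P53 knockdown replicate 1 (limma adjusted p = 0.0982, 0.121 and 0.196). The comparisons of Gata3 with WT rest on low values, as no group in them had both libraries at 1 FPKM. Its means at 6 h and 9 h were 0.129 and 0.222 FPKM in WT, 0.917 and 0.722 in knockout and 0.975 and 0.956 in P53 knockdown cells. Against WT, P53 knockdown cells were higher by 0.81 ± 0.19 (SE, limma adjusted p = 0.00164) at 6 h and 0.68 ± 0.19 (SE, limma adjusted p = 0.00591) at 9 h, the latter lost under quantile scaling (limma adjusted p = 0.223). Knockout cells were higher by 0.76 ± 0.19 (SE, limma adjusted p = 0.0031) at 6 h, and by 0.49 ± 0.19 (SE, limma adjusted p = 0.0447) at 9 h, a call lost without any 1 of the 4 libraries (limma adjusted p = 0.106 and 0.16 without WT replicates 1 and 2, and 0.106 and 0.15 without knockout replicates 1 and 2). Combined-loss cells fell by 9 h (-0.70 ± 0.19, SE, limma adjusted p = 0.0396), a call lost without 0 h replicate 1 or 2 or 9 h replicate 1 (limma adjusted p = 0.13, 0.232 and 0.306). Cdx2 was listed at 0 to 0.966 FPKM over the 28 libraries. It was at 0 in both P53 knockdown libraries at 3 h. Its highest group mean, 0.711, was in WT at 9 h, where the libraries (0.966 and 0.457) were not apart from 0.735 and 0.375 in knockout cells at 0 h.

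Ascl2 spanned 0.520 to 38.7 FPKM over the time course. It measured 36.9 and 38.7 FPKM in WT at 6 h and 14.4 and 18.4 at 9 h, a log2 change of -1.16 ± 0.23 (SE, limma adjusted p = 0.0025). In knockout libraries it measured 0.935 and 1.63 at 0 h, 2.14 and 1.63 at 3 h, 12.5 and 10.6 at 6 h and 22.9 and 25.5 at 9 h. In P53 knockdown libraries it measured 1.89 and 0.875, 2.89 and 1.63, 7.05 and 9.79 and 17.9 and 15.0. Between 6 h and 9 h both genotypes therefore climbed while WT came down, and at 9 h P53 knockdown overlapped WT. WT cells before 6 h were not used, so their earlier course is not known here. The rise from 0 h to 9 h was 3.48 ± 0.23 (SE, limma adjusted p = 2.2e-10) in knockout and 2.90 ± 0.23 (SE, limma adjusted p = 4.4e-09) in P53 knockdown cells, 18.9-fold and 11.9-fold between means in FPKM. In combined-loss libraries Ascl2 measured 0.725 and 0.825 at 0 h, 0.520 and 1.05 at 3 h, 1.51 and 1.88 at 6 h and 1.87 and 1.59 at 9 h, a change of 0.62 ± 0.23 (SE, limma adjusted p = 0.131). That response was smaller than in knockout cells by -2.86 ± 0.32 (SE, limma adjusted p = 1.4e-06) and smaller than in P53 knockdown cells by -2.28 ± 0.32 (SE, limma adjusted p = 3.5e-05). At 6 h knockout and P53 knockdown cells differed from WT by -1.63 ± 0.23 (SE, limma adjusted p = 6.5e-06) and -2.06 ± 0.23 (SE, limma adjusted p = 2.6e-07), and at 9 h by 0.54 ± 0.23 (SE, limma adjusted p = 0.0602) and 0.0068 ± 0.23 (SE, limma adjusted p = 0.985). The gap to WT changed between the times by 2.17 ± 0.32 (SE, limma adjusted p = 1.1e-04) in knockout and 2.06 ± 0.32 (SE, limma adjusted p = 6.9e-04) in P53 knockdown cells. The knockout difference at 9 h passed under quantile scaling (0.62, limma adjusted p = 0.0239).

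Hand1 was highest in P53 knockdown cells from 6 h. It measured 0.940 and 0.548 FPKM in WT at 6 h and 1.25 and 1.30 at 9 h, and in knockout libraries 0.324 and 0.430 at 0 h, 0.214 and 0.160 at 3 h, 1.40 and 1.43 at 6 h and 1.89 and 2.04 at 9 h. The P53 knockdown libraries gave 0.524 and 2.70 at 0 h, 1.15 and 1.69 at 3 h, 8.97 and 8.87 at 6 h and 7.84 and 8.46 at 9 h, and the combined-loss libraries 3.55 and 2.96, 3.53 and 4.94, 2.87 and 3.94 and 2.78 and 2.59. P53 knockdown cells at 6 h and 9 h lie above all other libraries. They exceeded WT by 2.52 ± 0.26 (SE, limma adjusted p = 1.1e-07) at 6 h and 2.01 ± 0.26 (SE, limma adjusted p = 2.2e-06) at 9 h, and rose by 1.94 ± 0.26 (SE, limma adjusted p = 3.6e-06) from 0 h. Knockout cells rose by 1.11 ± 0.26 (SE, limma adjusted p = 0.00104) from 0 h to 9 h, lost under quantile scaling (limma adjusted p = 0.057), and differed from WT by 0.48 ± 0.26 (SE, limma adjusted p = 0.139) and 0.38 ± 0.26 (SE, limma adjusted p = 0.248), which did not pass. Combined-loss cells were above P53 knockdown cells at 0 h (0.84 ± 0.26, SE, limma adjusted p = 0.0131) and below them at 9 h (-1.31 ± 0.26, SE, limma adjusted p = 4.2e-04). The 0 h difference was lost without P53 knockdown replicate 1 (0.20, limma adjusted p = 0.454) or without combined-loss replicate 1 (0.74, limma adjusted p = 0.0945). Their 9 h response was lower than that of P53 knockdown cells by -2.15 ± 0.37 (SE, limma adjusted p = 2.2e-04). Against knockout cells combined-loss cells were higher at 0 h by 1.63 ± 0.26 (SE, limma adjusted p = 3.0e-05).

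**Figure D4:**
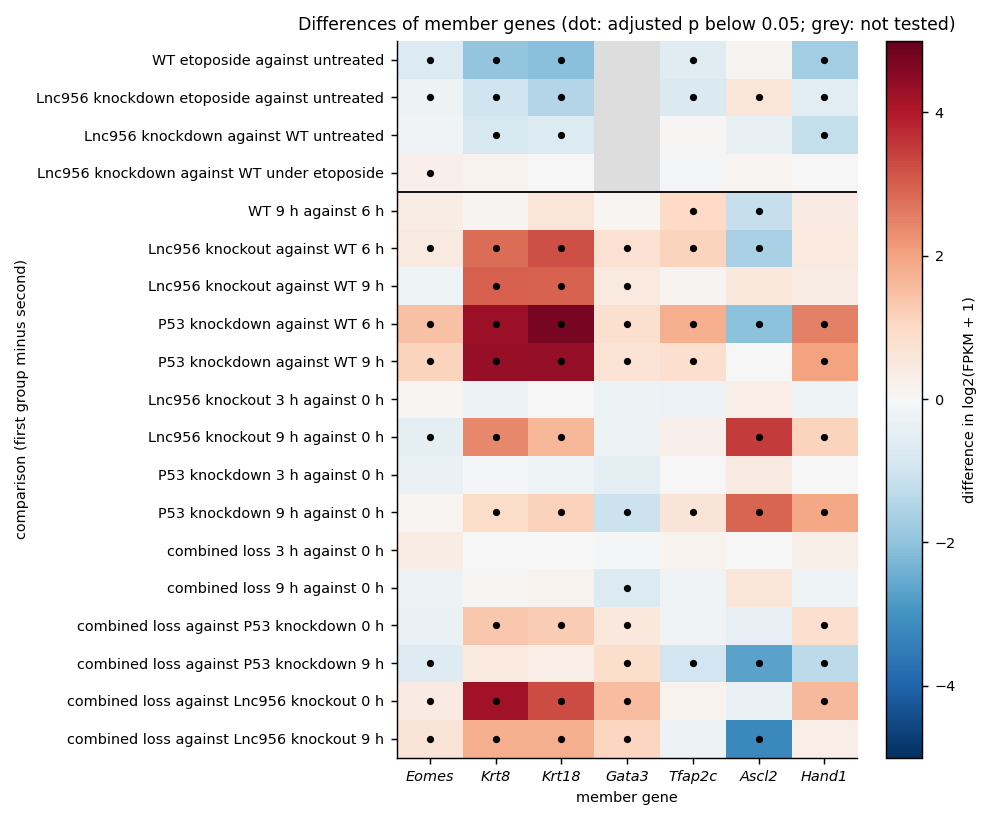
Difference in log2(FPKM + 1) of the 7 members tested, in the 4 2-group comparisons of the first set (above the line) and the 15 of the time course (below), red where the group named first is higher. Black dots mark an adjusted p under 0.05 and grey cells were not tested. In the 4 time-course comparisons of another genotype with WT the keratin cells are the deepest. The Ascl2 column is blue in both of these at 6 h and in both comparisons of combined loss with another genotype at 9 h.

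The other trophoblast and simple-epithelium genes, 20 of 22 tested in the time course, gave a mixed picture. Knockout cells had 8 of them above and 4 below WT at 6 h, then 7 above and 4 below at 9 h. Of all genes tested 48.3% and 44.1% were called in these comparisons. P53 knockdown cells had 14 above and 2 below, then 9 above and 4 below, with 53.2% and 54.5% of all genes called. Esx1, a placental homeobox gene, was at 0.374 FPKM in WT at 6 h against 4.16 in knockout and 4.52 in P53 knockdown cells (1.91 ± 0.18, SE, limma adjusted p = 4.5e-08, and 2.01 ± 0.18, SE, limma adjusted p = 1.6e-08). Gcm1, a factor of the labyrinth layer, went the other way, from 5.45 FPKM in WT to 1.61 and 0.394 (-1.32 ± 0.18, SE, limma adjusted p = 4.2e-06, and -2.21 ± 0.18, SE, limma adjusted p = 2.9e-09). From 0 h to 9 h 12 rose and 4 fell in knockout cells, with 63.6% of all genes called. In P53 knockdown cells 7 rose and 5 fell, with 60.2% called, and Tead4 there fell from 27.3 to 3.42 FPKM (-2.69 ± 0.17, SE, limma adjusted p = 2.8e-10). In combined-loss cells none rose and 3 fell, with 5.62% called. At 0 h combined-loss cells had 12 higher and none lower than P53 knockdown cells, with 44.9% of all genes called. Against knockout cells they had 12 higher and 1 lower at 0 h, with 55.4% called. The sodium pump subunit gene Atp1b1 stood at 172 and 175 FPKM in combined-loss against 27.9 and 29.9 in knockout libraries (2.54 ± 0.10, SE, limma adjusted p = 8.0e-13) and the desmosome gene Dsp at 19.3 and 20.8 against 0.504 and 0.619 (3.75 ± 0.17, SE, limma adjusted p = 2.3e-12). The summed level of the 22 genes was 569 to 736 FPKM in the 8 combined-loss libraries and 212 to 389 in the other 20.

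By Pearson correlation of log2(group mean FPKM + 1) over the 14 groups, the gene most like Ascl2 among all genes tested was Acot6 (r = 0.99), then Bhlha15 and Ppp1r3d (both 0.98). Gata3 was most like Sgms2 (0.98), Sertad2 (0.97) and Wwc2 (0.97), and Eomes most like Zic5 (0.95), Otx2 (0.94) and Prss35 (0.93). After Krt18, Krt8 was most like Tcf24 and Pvrl3 (both 0.97), and after Krt8, Krt18 was most like Tpbg and Yaf2 (both 0.97). The closest genes to Tfap2c were Dcaf5 (0.91), Pde6d (0.90) and Fzd7 (0.89), and to Hand1 they were Gm1564, 2310030G06Rik and 1700096K18Rik (all 0.93). These are the 3 highest of 14222 for each member, over groups that share their genotypes.

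P53 peaks were not found at the members. A site was a peak seen in both libraries of a group, and a gene was counted when a site lay within 10 kb of its body. None of the 8 members had a P53 site in untreated or treated WT or knockdown cells, where 1.85%, 18.5%, 1.32% and 16.1% of 21887 protein-coding genes did, in the order WT untreated, WT treated, knockdown untreated and knockdown treated. No single library had a P53 peak within that window either. The nearest were 26733 bp from Tfap2c, in 1 library, and 38888 bp from Ascl2, in 2 libraries of different groups. These shares were low in untreated cells and higher in treated cells, and the count of 0 of 8 was not tested against them. With so few members it is not read as a result about them.

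KLF4 sites were found at 7 of 8 members in untreated WT cells, where 62.6% of genes had one, and at none after 3 h of etoposide, where 25.8% did. In knockout cells 6 members had a site untreated (55.7% of genes) and 7 with etoposide (53.4%). With full-length rescue the counts were 7 untreated (58.8%) and 5 treated (44.1%), and with deletion rescue 6 untreated (58.9%) and 6 treated (55.6%). The lists themselves differ in length. The treated WT lists hold 6943 and 5691 peaks and the untreated WT lists 30590 and 27294. Of these, the shorter, treated lists went with the lower share of all genes with a site. The folds are the authors' values over the control, read here only within a list or as listed. Treated WT replicate 1 alone listed peaks at Krt8 and Tfap2c, at 4.66-fold and 6.21-fold, and replicate 2 listed none at any member.

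**Figure D5:**
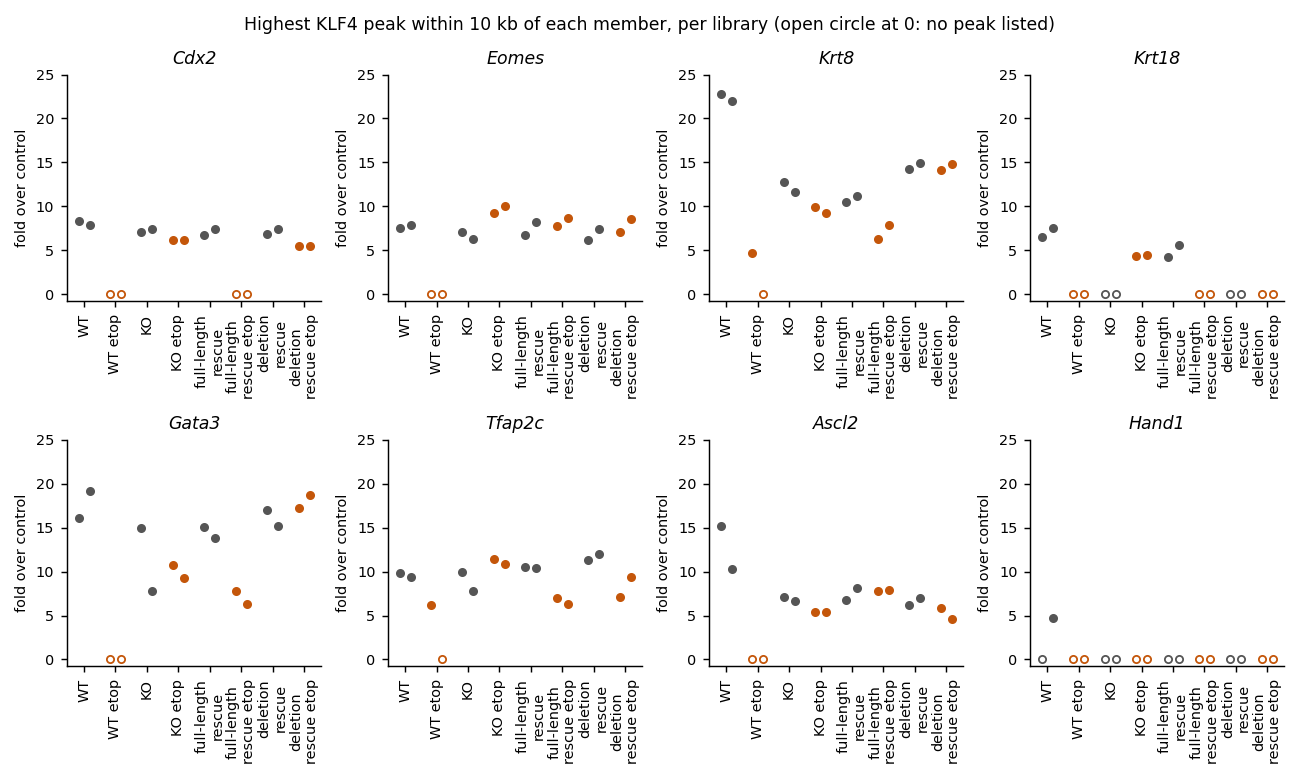
Fold enrichment over the control of the highest KLF4 peak within 10 kb of each member, per library, as the authors' peak lists give it. Grey points are untreated and orange points treated libraries (KO, Lnc956 knockout; etop, 10 uM etoposide for 3 h), and open circles at 0 mean that no peak was listed; 7 of the 8 panels have both untreated WT libraries above 0, and 6 have both treated WT libraries open.

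Within 10 kb of the members, the most widely shared peak lay in Krt8 (chr15:102002861-102004842, mm10, the span over libraries), mostly inside the gene, downstream of its start, in 15 of 16 libraries. Its highest fold was 22.7 and 22.0 in untreated WT, 12.7 and 11.7 in untreated knockout, 9.95 and 9.28 in treated knockout, and 10.5 and 11.1 in untreated full-length rescue libraries. In treated full-length rescue libraries it was 6.23 and 7.88, and in deletion rescue libraries 14.3 and 14.9 untreated and 14.2 and 14.8 treated. Within the untreated WT lists this peak ranked 2743 of 30590 and 2614 of 27294 by fold, and in treated WT replicate 1 it ranked 6353 of 6943. In 9 libraries a peak of this region reached over the Krt8 upstream sequence shown above. At Krt18 (chr15:102028216-102032026) the start site carried a peak in both untreated WT libraries (6.49 and 7.52) and in 1 untreated full-length rescue library (3.76). Over libraries this place spanned chr15:102028098-102028453, which covers the end of the sequence shown. The match 63 bases upstream lies within that span, and those 181 and 145 bases upstream lie outside it. The Krt18 site counted in treated knockout and in untreated full-length rescue cells was another one. It lay at least 9829 bp from the gene, near the edge of the window, at 4.27-fold to 5.59-fold. Beyond the window, places 11996 bp and 18308 bp from Krt8 had peaks in all 16 libraries, both treated WT ones among them. These reached up to 19.7-fold and 36.4-fold. Another such place lay 41130 bp from Krt18, at up to 30.5-fold.

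Ascl2, Gata3, Eomes and Tfap2c each had 1 place within 10 kb that recurred in 14 libraries, all but the 2 treated WT ones. For Ascl2 it spanned the gene and its start (chr7:142967222-142969672), with 15.2 and 10.3 as the highest fold in untreated WT and 4.65 to 8.16 in the other libraries that listed it. For Gata3 it lay within the annotated gene, just upstream of the start site used for the sequence (chr2:9878947-9880035), between 6.31 and 19.2, and a second place over the sequence shown above was listed in 6 libraries. For Eomes it lay inside the gene just after the start (chr9:118478551-118479835), between 4.55 and 10.1, and for Tfap2c in the gene body (chr2:172550303-172551814), between 3.87 and 9.64. A second place in Tfap2c (chr2:172548664-172549948) was listed in 13 libraries, treated WT replicate 1 among them. Cdx2 had 5 weaker places within 10 kb, of at most 8.34-fold, each in 1 to 10 libraries. Hand1 had a single peak of 4.72-fold in untreated WT replicate 2 and no site in any group within 10 kb.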

How the data were processed

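RNA-seq and ChIP-seq libraries of mouse ES cells were analysed from the deposited tables. The authors' FPKM values came from reads aligned with TopHat2 2.0.8 and summarised with Cufflinks 2.1.1 on mm10, per the submitters' processing notes. Peaks were called with MACS2 2.2.7.1 after Bowtie2 2.1.0, per the same notes. The deposited peak lists give a fold enrichment over the control, a -log10 p, a -log10 q and a score, of which the fold was described and the -log10 q used as a filter in an alternative. Here log2(FPKM + 1) was fitted with limma 3.58.1 (R 4.3.3, trend, all groups of a table in 1 fit), for genes at 1 FPKM or more in at least 2 libraries, and p-values were adjusted by Benjamini-Hochberg over all 12733 or 14223 genes at a threshold of 0.05. Of the 280 symbols on several rows of the first table, 140 whose rows differed were left out. The time-course table has 4 more value columns, headed as WT at 0 h and 3 h, which match none of the samples used here and were not used. The members and lists were chosen with earlier results of these data known. All members are described, other listed genes by counts, and like genes by the 3 highest correlations. Among the other lists, test values are given only for trophoblast and simple-epithelium genes, for some of the 4 lowest p-values of a comparison. The 5 tests of a difference between responses in the time course, and the refit that treats values with 3 or fewer significant digits as missing, were added after seeing the data. A site is a peak that overlaps by 1 bp or more between both libraries. The script was tested on simulated data. Alternatives were a pseudocount of 0.1, no filter, quantile scaling, a replicate block, leaving out each library and leaving out the 4 libraries labelled 10 uM.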

Additional observations from a re-analysis of the deposited data

Results flagged for a closer look

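The values here are differences in log2(FPKM + 1) between responses that passed limma's test across all genes, and no explanation was weighed for any of them. In the first set the etoposide response of knockdown minus WT cells was 0.96 for Krt8, 0.66 for Krt18, 1.19 for Hand1 and 0.44 for Eomes, the Eomes call being lost without any 1 of 4 libraries (limma adjusted p = 0.0625 to 0.079). In the time course the 9 h response of P53 knockdown minus knockout cells was -1.50 for Krt8, -0.83 for Gata3 and 0.57 for Eomes. Without P53 knockdown 0 h replicate 2 the Krt8 value was -0.89, limma adjusted p = 0.0222. The Gata3 call was lost without that library or without knockout 0 h replicate 2 (limma adjusted p = 0.0659 and 0.0598), and the Eomes call without P53 knockdown 9 h replicate 1 (limma adjusted p = 0.0527). The 9 h response of combined loss minus knockout was -2.37 for Krt8, -1.46 for Krt18, -0.44 for Tfap2c, -2.86 for Ascl2 and -1.31 for Hand1. The Tfap2c call was lost without any 1 of the 8 libraries except combined loss 9 h replicate 2, with limma adjusted p from 0.0516 to 0.244. The 9 h response of combined loss minus P53 knockdown was -0.79 for Tfap2c, -2.28 for Ascl2 and -2.15 for Hand1. The gap to WT changed from 6 h to 9 h in knockout cells by -0.64 for Eomes, -0.99 for Tfap2c and 2.17 for Ascl2, the Eomes call being lost without WT 9 h replicate 2, WT 6 h replicate 2 or knockout 6 h replicate 1 (limma adjusted p = 0.0627, 0.0988 and 0.0674), and in P53 knockdown cells by -0.95 for Tfap2c and 2.06 for Ascl2.

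Between 0 h and 3 h the difference in FPKM had opposite signs in 2 genotypes for some members, with no overlap of libraries within either. The difference between the genotypes was not tested, and none of the changes of Eomes and Tfap2c within a genotype passed limma's test. In combined loss 0 of all 14223 genes passed between these times. How many of all genes show such opposite signs was not counted, so they are not read as a result about these members. Cdx2, below the filter, differed by 0.182 in combined loss and -0.182 in P53 knockdown, where it was listed at 0 in both libraries at 3 h. Eomes differed by -1.22 in P53 knockdown, 0.264 in knockout and 1.32 in combined loss. Tfap2c differed by 2.27 in combined loss and -2.47 in knockout.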

How the results depend on the processing

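The members' values kept direction and side of the threshold in 163 of 170 cases with no filter, 166 of 170 with a pseudocount of 0.1, 140 of 170 with quantile scaling, 133 of 140 without the 4 libraries labelled 10 uM, 163 of 164 with few-digit values as missing and 761 of 844 with 1 library left out. The cause of the exceptions was not tested. Each value that changed sign was uncalled in the main analysis. Quantile scaling moved the median of all genes by over 0.1 in 8 comparisons: by -0.133 for P53 knockdown against WT at 9 h, by -0.286 and -0.210 for knockout and P53 knockdown at 9 h against 0 h, by -0.100 and 0.129 for combined loss against knockout at 0 h and 9 h, by 0.177 for combined loss against P53 knockdown at 9 h, and by 0.250 and 0.165 for the 9 h response of combined loss minus knockout and minus P53 knockdown. It moved the higher and lower calls from 6148 and 2902 to 4158 and 4278 for knockout 9 h against 0 h, and from 5593 and 2975 to 4181 and 4244 for P53 knockdown. The other splits that moved by over 10 percentage points were 1082 and 637 to 886 and 1027 (WT 9 h against 6 h), 4220 and 3525 to 3589 and 4638 (P53 knockdown against WT 9 h), 1730 and 2482 to 2254 and 2134 (knockdown minus WT response), 2123 and 4696 to 3249 and 3131 and 2912 and 4625 to 3805 and 3866 (combined loss against P53 knockdown and knockout at 9 h), 2202 and 4542 to 3057 and 2776 and 1674 and 3187 to 2618 and 2589 (the responses of combined loss minus knockout and minus P53 knockdown), and 1828 and 1027 to 1684 and 1541 (knockout minus WT, 9 h against 6 h). By smaller moves the majority also changed side for WT etoposide, treated knockdown against WT, knockout against WT at 9 h, P53 knockdown against WT at 6 h, P53 knockdown 3 h, combined loss against P53 knockdown and knockout at 0 h, the response of P53 knockdown minus knockout and the change of the P53 knockdown gap.

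Under quantile scaling the sign changed, with values now -0.0058 for Tfap2c in untreated knockdown against WT, 0.11 for Krt18 under etoposide, -0.0051 for Ascl2 in P53 knockdown against WT at 9 h, -0.00048 and -0.028 for Eomes and Krt18 in knockout at 3 h, -0.091 and -2.7e-05 for Hand1 and Tfap2c in P53 knockdown at 3 h, -0.14 for Eomes in P53 knockdown at 9 h, -0.0038 and -0.010 for Krt18 and Krt8 in combined loss at 3 h, -0.038 for Krt8 there at 9 h, and 0.087 for Gata3 in the response of combined loss minus knockout. Without the 4 libraries labelled 10 uM, Krt8 was 0.0068 in knockout at 3 h and -0.0097 in combined loss at 9 h.

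Counts of all genes called moved from 64 to 116 with a pseudocount of 0.1 and to 23 without the 10 uM libraries (knockout 3 h), from 0 to 4 with no filter, 1 without the 10 uM libraries and 1 with few-digit values as missing (combined loss 3 h), and, without the 10 uM libraries, from 800 to 250 (combined loss 9 h), from 2855 to 1719 and from 1196 to 329 (change of the gap to WT, knockout and P53 knockdown). The single member called was lost, leaving 0, with no filter for knockdown against WT under etoposide, and with a pseudocount of 0.1, no filter or no 10 uM libraries for combined loss at 9 h. With few-digit values as missing, Tfap2c in the response of combined loss minus knockout lost its call (limma adjusted p = 0.0501), and 6 values could not be fitted. Within 50 kb, 2 members, Krt8 and Krt18, had a KLF4 site in treated WT cells, and with 1 replicate alone within 10 kb 0 to 2 members had one.

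With 1 library left out, the genes called ranged over 866 to 2328 for untreated knockdown against WT (3032 with all), 617 to 684 for WT 9 h against 6 h (1719), 35 to 56 for knockout 3 h, 0 to 2 for combined loss 3 h, 317 to 439 for combined loss 9 h and 525 to 684 for the P53 knockdown gap. The members called ranged over 0 to 1 under etoposide, 0 to 1 for P53 knockdown 3 h, 0 to 1 for combined loss 9 h, 2 to 5 for combined loss against P53 knockdown at 0 h and 3 to 5 for their responses. Values that crossed 0 were, for Ascl2, -0.053 to 0.31 (WT etoposide), -0.077 to 0.29 (knockdown against WT, treated), -0.16 to 0.17 (P53 knockdown against WT 9 h) and -0.22 to 0.21 (combined loss 3 h). For Hand1 they were -0.0090 to 0.039 (treated knockdown), -0.62 to 0.66 (P53 knockdown 3 h) and -0.26 to 0.065 (knockout gap). For Krt18 they were -0.061 to 0.024 (treated knockdown), -0.13 to 0.16 (knockout 3 h), -0.86 to 0.44 (P53 knockdown 3 h), -0.040 to 0.11 (combined loss 3 h) and -1.17 to 0.13 (P53 knockdown minus knockout). For Krt8 they were -0.026 to 0.27 (WT 9 h), -0.52 to 0.0068 (knockout 3 h), -0.66 to 0.56 (P53 knockdown 3 h), -0.13 to 0.17 and -0.11 to 0.20 (combined loss 3 h and 9 h) and -0.089 to 0.21 (P53 knockdown gap). For Tfap2c they were -0.021 to 0.037 (P53 knockdown 3 h) and -0.33 to 0.0010 (combined loss 9 h).

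The correlation of the deviations of same-numbered libraries was -0.16 to 0.089 over 6 pairs of groups in the first set and -0.55 to 0.51 over 91 pairs in the time course, where 18 were above 0.1. The highest was that of P53 knockdown at 0 h and 3 h, whose same-numbered libraries deviated together. As this did not hold for every pair of groups, the numbers were not taken to pair the samples. With the replicate number as a block 168 of 170 member values kept their call, and Gata3 in knockout against WT at 9 h (0.49, limma adjusted p = 0.0505) and Tfap2c in the response of combined loss minus knockout (-0.44, limma adjusted p = 0.0553) lost theirs. Depth is unknown, so it cannot be said what it limits.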
